A study of Mus musculus with 36 samples.

Results

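Corpus callosum was compared with cortex in untreated control mice across all genes with enough counts in the libraries of at least 1 of them, using 3 libraries of each region taken by their labels from the 36 libraries of a study of a mouse model of multiple system atrophy. All 6 libraries came from male mice that the labels call CTRL and the protocol calls WT, fed standard AIN-76A chow from 4 weeks of age for 12 weeks, and were made from polyadenylated RNA of archived frozen tissue. The same regions of 3 other groups of male mice served as a repeat in separate samples: control mice on chow with the CSF1R inhibitor PLX5622 (1200 mg/kg), which depletes microglia, MBP29-hα-syn mice (labelled MSA, with human α-synuclein expressed from a myelin basic protein promoter and so in oligodendrocytes) on standard chow, and MSA mice on the PLX5622 chow. Each of those groups had 2 corpus callosum and 3 cortex libraries. The labels do not say which libraries came from the same animal. A p-value here rests on the scatter within groups of all 30 bulk libraries, striatum included, which were fitted together, and not on the 6 compared alone. That scatter may be partly technical.

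The corpus callosum is the large tract that joins the cerebral hemispheres. Many of its axons are wrapped in myelin, a lipid-rich membrane that oligodendrocytes make and that speeds conduction, whereas the cortex holds the cell bodies, dendrites and synapses of layered glutamatergic neurons and GABAergic interneurons with far less myelin. Astrocytes, microglia and vessels occur in both. In bulk tissue, fewer cells of a type and less RNA per cell cannot be told apart, which applies to every difference given here.

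The libraries held 9255785, 7314354 and 21747815 gene counts in corpus callosum and 7162375, 7722296 and 6490635 in cortex, and the share of each library's reads that was assigned to genes was 74.8, 73.5 and 66.5% in corpus callosum and 82.6, 77.7 and 60.1% in cortex. Counts per library are compared as CPM, which are counts per 1e+06 of the library size after scaling by the trimmed mean of M-values. Cortex library 3 stood apart. Transcripts shorter than 1 kb took 8.67% of its counts, against 2.17 to 4.54% in the other 5, and its correlation with them, computed across genes on log2 CPM, was 0.871 to 0.920. It was high for Fth1, the ferritin heavy chain, which had 4092, 3313 and 4879 CPM in corpus callosum against 1301, 1806 and 7381 CPM in cortex, and for the ribosomal protein gene Rps14, which had 306, 414 and 645 CPM in corpus callosum against 149.50, 243 and 2471 CPM in cortex; both genes were picked after their values were seen. Results are therefore also given without this library.

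The tissue labels were checked against the defining markers. The 15 structural myelin genes summed to 31942, 17103 and 27885 CPM in corpus callosum against 2700, 3867 and 4064 CPM in cortex, with the regions far apart. The corpus callosum libraries also contained transcripts of cortical neurons. Markers of cortical glutamatergic neurons, 15 genes, summed to 5978, 7866 and 4858 CPM in corpus callosum against 14062, 14578 and 5836 CPM in cortex, so that corpus callosum held a lower sum than cortex libraries 1 and 2 and overlapped cortex library 3. The glutamatergic factor Tbr1, which is not expressed by glia, had 168, 183 and 74.4 CPM in corpus callosum against 219, 203 and 66.2 CPM in cortex. How much of each difference comes from neurons within the callosal dissections was not tested.

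Of 24940 genes in the table, 14421 had enough counts to be tested, and 489 of them (3.39%) differed between the regions at an adjusted p under 0.05 (edgeR's quasi-likelihood test with Benjamini-Hochberg adjustment over all genes tested). Expression was higher in corpus callosum for 394 genes, or 2.73% of those tested, and lower for 95, or 0.659%. The higher genes had a median fold of 3.06, and the lower genes were a median of 2.23-fold lower. The higher side also reached further. A log2 difference above 2 was seen for 133 higher genes and above 3 for 35, whereas 7 of the lower genes went below -2. All 3 corpus callosum libraries lay above all 3 cortex libraries for 388 of the 394 higher genes, against 10.2% of all genes tested, and below them for 92 of the 95 lower genes, against 8.15% of all genes tested. The calls come from these same libraries, so this separation is largely a result of the selection and not separate support. The genes called were mostly protein-coding, with 376 of the higher and 92 of the lower.

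**Figure D1:**
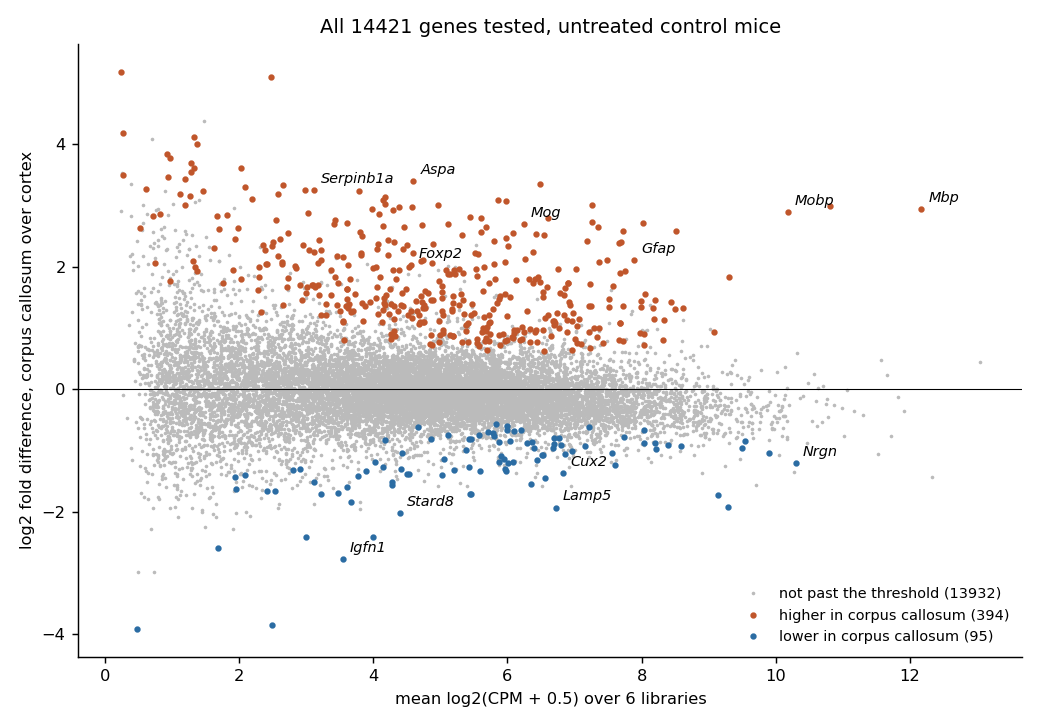
Each point is 1 of the 14421 genes tested, placed by its mean log2(CPM + 0.5) over the 6 libraries (horizontal) and its log2 fold difference, corpus callosum over cortex (vertical). The 394 higher genes (orange) spread to larger differences than the 95 lower genes (blue), and Mbp and Mobp combine a large difference with a very high level.

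The size of both counts depended on single libraries. Without cortex library 3 there were 379 higher and 186 lower genes, so that the higher share of calls was 67.1% in place of 80.6%. The lower genes numbered 39 without cortex library 2, 28 without corpus callosum library 1 and 19 without corpus callosum library 3, and the higher genes numbered 224 without corpus callosum library 1 and 253 without corpus callosum library 3. DESeq2 called 533 higher and 256 lower genes, a higher share of 67.6%, and scaling by total gene counts alone gave 547 and 60, a higher share of 90.1%. Fitting the 6 libraries alone, with less information on the spread, gave 126 and 15. Scaling by total gene counts put the median log2 difference of all genes at 0.07, where it was -0.06 with the trimmed mean of M-values.

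The structural myelin genes made up the top of the corpus callosum profile. Of 15 genes for proteins of compact and non-compact myelin, 14 rose and none fell, with a median log2 difference of 2.69 against -0.06 over all genes tested. The exception was Omg, a myelin glycoprotein that neurons also make, with 136, 125 and 146 CPM in corpus callosum against 84.9, 103 and 84.4 CPM in cortex (adjusted p = 0.101, edgeR). Mbp, which encodes myelin basic protein and sits on chromosome 18 at 82554463-82585637 (mm10), had 16922, 8740 and 13606 CPM in corpus callosum against 1361, 2057 and 1702 CPM in cortex. The lowest corpus callosum library was over 4-fold above the highest cortex library, and the log2 difference was 2.94 ± 0.39 (SE, n = 3 each; edgeR adjusted p = 3.76e-05). Corpus callosum library 2 was the lowest of its region. Mog, a surface protein of the outermost myelin layer, had 207, 145 and 233 CPM in corpus callosum against 23.2, 26.9 and 40.3 CPM in cortex. Its difference of 2.69 ± 0.35 (log2, SE, n = 3 each; edgeR adjusted p = 2.8e-05) was close to that of Mbp.

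Other myelin protein genes were separated in the same way. Mobp, the myelin-associated oligodendrocyte basic protein, had 3583, 2209 and 4537 CPM in corpus callosum against 219, 403 and 764 CPM in cortex, and Mal, a proteolipid of lipid rafts, had 747, 509 and 825 CPM in corpus callosum against 56.4, 114 and 147 CPM in cortex. Cldn11, the claudin of the tight junctions between myelin lamellae, had 642, 316 and 387 CPM in corpus callosum against 52.3, 74.5 and 40.1 CPM in cortex, an 8.05-fold difference. Mag, an adhesion molecule of the inner, axon-facing myelin membrane, had 609, 294 and 363 CPM in corpus callosum against 74.2, 79.6 and 48.6 CPM in cortex. The groups did not overlap in any of these 4 genes. Ermn, a cytoskeletal protein of late oligodendrocytes, had the largest difference of the list at 3.35 ± 0.48 on the log2 scale, with 334, 179 and 374 CPM in corpus callosum against 20.2, 26 and 41.1 CPM in cortex (edgeR adjusted p = 8.51e-05). Opalin, a sialylated glycoprotein of oligodendrocyte membranes, had 99.3, 72.7 and 119 CPM in corpus callosum against 5.76, 10.5 and 28.5 CPM in cortex, but its call was lost without cortex library 1 (adjusted p = 0.0776), cortex library 2 (0.0779) or corpus callosum library 3 (0.0587; all edgeR).

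**Figure D2:**
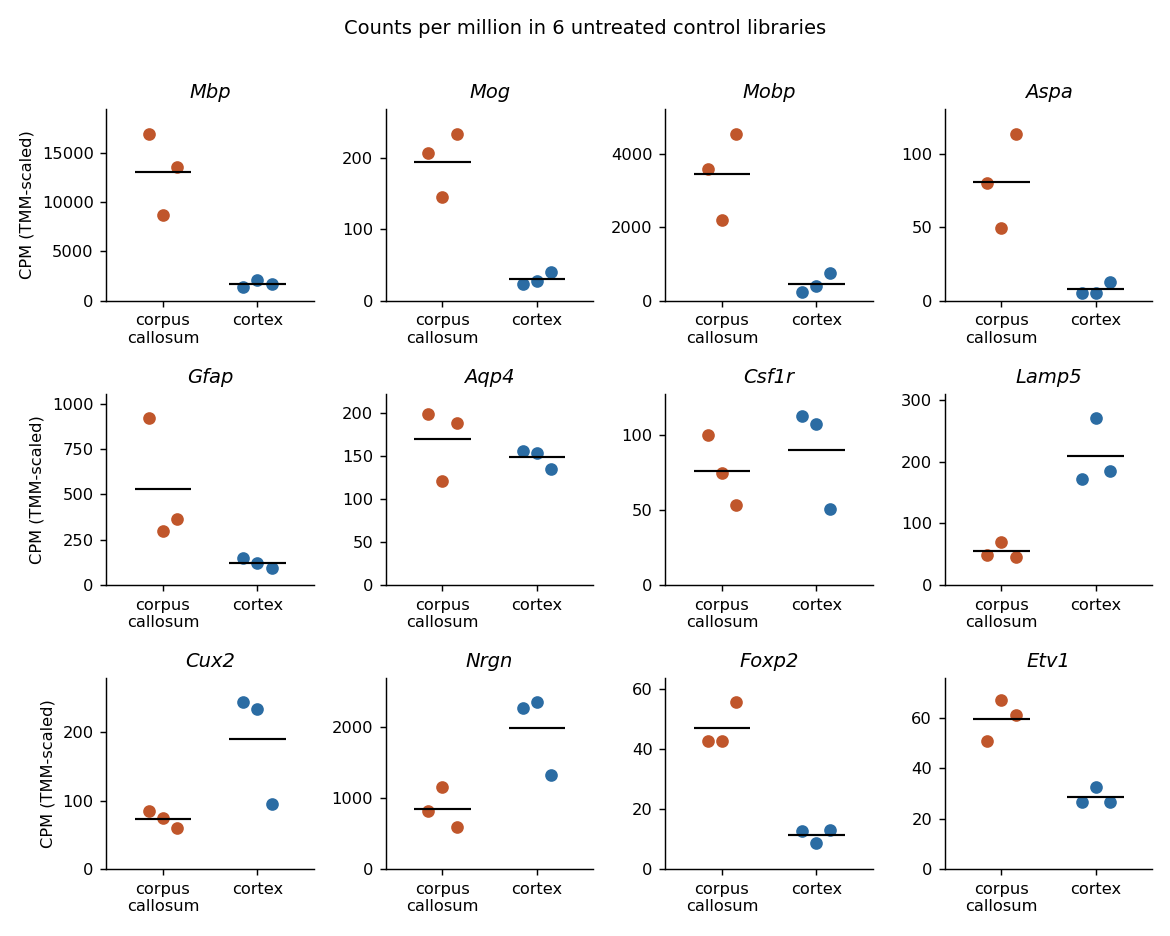
CPM of 12 genes in each of the 6 untreated control libraries (points, replicates 1 to 3 from left to right) with the group mean (line), corpus callosum in orange and cortex in blue. The myelin genes and Foxp2 are higher in every corpus callosum library, Lamp5 is higher in every cortex library, and Aqp4 and Csf1r overlap between the regions.

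Set per transcript length, with the deposited TPM (length-normalised transcript abundance), Mbp was the most abundant transcript of corpus callosum, with a mean of 8207 ± 2495 TPM (SD, n = 3) and rank 1 of all genes, against 1011 ± 240.0 TPM and rank 25 in cortex. Mobp held rank 9 in corpus callosum and rank 384 in cortex. The 15 structural myelin genes together took 3.80, 2.02 and 3.28% of the TPM in the table in corpus callosum and 0.316, 0.450 and 0.354% in cortex. These are shares of the rows in the table, whose columns sum to less than the TPM scale. By the same per-length measure the highest mean in cortex was that of Fth1, with 1922, 2629 and 8870 TPM, which rested on cortex library 3. Without that library Nrgn, neurogranin, held rank 1 in cortex with a mean of 2463 TPM over 2 libraries and Fth1 rank 2 with 2275 TPM, while Mbp held rank 19 and Mobp rank 590.

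Promoters were read for the genes of this list, because its members moved together. The RefSeq promoter table (GRCm38.p6, 250 bases before to 50 after each start) held 8 of the 15 genes. The words searched were ACAAAG, the core recognised by SOX factors such as SOX10, the E-box CAGCTG, the TATAAA word and TGACG, the core of the cyclic AMP response element, each on both strands. The SOX core occurred in 4 of the 8 myelin promoters, in 16.5% of the 272 promoters found for higher genes, in 13.6% of the 66 found for lower genes, in 12.8% of 10022 found for tested genes and in 18.7% of all 32851 promoters in the table. None of the 9 promoters found for the myelin lipid genes held it. The other words were not more frequent in the 8 myelin promoters than in those of tested genes. The E-box was in 1 of the 8 (12.5%) against 15.1%, TATAAA in 0 (0%) against 6.77% and the TGACG core in 2 (25%) against 31.7%. With 8 promoters each of these shares turns on single genes, that of the SOX core too, and none was tested. A match is a run of letters and not a shown binding site. The 4 promoters below are those of the called genes of the list with the largest fold among the promoters found. They are written 5′ to 3′ on the gene's strand, with the SOX core on either strand in capitals. They lie at chr9:120149492-120149791 (Mobp, plus strand), chr19:41077064-41077363 (Opalin, minus), chr3:31149670-31149969 (Cldn11, plus) and chr2:127656646-127656945 (Mal, minus).
Mobp: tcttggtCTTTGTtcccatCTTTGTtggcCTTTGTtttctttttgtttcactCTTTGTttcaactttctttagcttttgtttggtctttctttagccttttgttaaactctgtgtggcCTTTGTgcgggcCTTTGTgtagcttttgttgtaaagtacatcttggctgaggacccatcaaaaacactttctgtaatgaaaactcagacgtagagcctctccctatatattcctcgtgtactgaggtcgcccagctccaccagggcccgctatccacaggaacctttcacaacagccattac
Opalin: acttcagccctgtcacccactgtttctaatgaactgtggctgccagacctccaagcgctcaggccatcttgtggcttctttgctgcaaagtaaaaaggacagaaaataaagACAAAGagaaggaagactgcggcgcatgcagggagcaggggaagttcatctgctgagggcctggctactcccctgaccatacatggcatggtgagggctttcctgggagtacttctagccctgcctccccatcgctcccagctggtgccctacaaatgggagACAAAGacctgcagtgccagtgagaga
Cldn11: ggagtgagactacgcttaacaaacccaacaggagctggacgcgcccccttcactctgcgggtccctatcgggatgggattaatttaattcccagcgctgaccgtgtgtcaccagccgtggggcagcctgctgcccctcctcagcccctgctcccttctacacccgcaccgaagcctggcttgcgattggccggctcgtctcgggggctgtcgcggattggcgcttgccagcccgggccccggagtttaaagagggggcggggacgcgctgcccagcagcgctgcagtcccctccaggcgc
Mal: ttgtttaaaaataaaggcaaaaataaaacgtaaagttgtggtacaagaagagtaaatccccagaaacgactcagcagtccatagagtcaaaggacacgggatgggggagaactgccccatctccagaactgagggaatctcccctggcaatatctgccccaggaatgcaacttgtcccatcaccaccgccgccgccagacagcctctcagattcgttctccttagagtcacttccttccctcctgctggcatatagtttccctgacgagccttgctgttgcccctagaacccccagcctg
The Mobp promoter held 6 matches that began between 243 and 120 bases before the start, all as the reverse complement. Opalin held 2, Cldn11 and Mal none. The folds of the 4 genes were 7.45, 6.51, 8.05 and 6.55 in the order of the lines.

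Genes for myelin lipids rose with the proteins. Of 12 genes on this list 9 rose and none fell, with a median log2 difference of 1.62. Ugt8a, which adds galactose to ceramide to make the main myelin galactolipid, had 206, 98.5 and 197 CPM in corpus callosum against 24.7, 24.9 and 36.3 CPM in cortex (log2 2.55 ± 0.35; edgeR adjusted p = 4.18e-05). Fa2h, which hydroxylates the fatty acids of these lipids, had 206, 97.1 and 109 CPM in corpus callosum against 25.3, 24.5 and 9.04 CPM in cortex. Gltp, a glycolipid transfer protein, had 137, 89.1 and 90.6 CPM in corpus callosum against 34, 30.5 and 26.5 CPM in cortex. Aspa, aspartoacylase, which frees acetate from N-acetylaspartate in oligodendrocytes and whose loss causes Canavan disease, had the largest fold difference among called genes with a mean log2 CPM of at least 3. It is on chromosome 11 at 73304988-73324637 and had 80.5, 49.5 and 113 CPM in corpus callosum against 5.17, 5.47 and 12.4 CPM in cortex, a log2 difference of 3.41 ± 0.59 (SE, n = 3 each; edgeR adjusted p = 0.000937). Of 20 cholesterol synthesis genes none passed the test in either direction, against 3.39% of all genes tested, and their median was -0.06, that of all genes tested being -0.06.

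The transcription factors of the oligodendrocyte lineage were higher in corpus callosum for 8 of 11 genes, none was lower, and their median log2 difference was 1.70. Myrf, the factor that switches on myelin genes at terminal differentiation, had 291, 159 and 208 CPM in corpus callosum against 56.6, 40.3 and 17 CPM in cortex (log2 2.53 ± 0.36; edgeR adjusted p = 6.3e-05). Nkx6-2, a homeobox factor of myelinating cells, had 143, 62.5 and 89 CPM in corpus callosum against 17.3, 12.5 and 21.8 CPM in cortex, and St18, a zinc finger factor, had 35, 23.1 and 39.4 CPM in corpus callosum against 5.32, 5.6 and 5.51 CPM in cortex. All 3 kept their call without any 1 library. Olig2 and Sox10, which also mark precursors, had smaller or more variable differences, with 108, 91.9 and 69.4 CPM in corpus callosum against 43.3, 44.8 and 19.8 CPM in cortex for Olig2 and 194, 56.6 and 126 CPM in corpus callosum against 47.1, 28.5 and 15.2 CPM in cortex for Sox10. Without corpus callosum library 1 the adjusted p was 0.0561 for Olig2 and 0.0957 for Sox10, and the number of called factors was 3, and with edgeR on the 6 libraries alone it was also 3.

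Of 14 genes of precursors and newly formed oligodendrocytes 2 rose and none fell, with a median of 0.44. Both were genes of the later steps. Enpp6, a choline phosphodiesterase of newly differentiating cells, had 56.1, 27.4 and 41.2 CPM in corpus callosum against 2.95, 5.47 and 4.75 CPM in cortex (log2 3.24 ± 0.49; edgeR adjusted p = 0.000165), and Bcas1, which marks early myelinating cells, had 534, 364 and 563 CPM in corpus callosum against 60.1, 101 and 116 CPM in cortex (log2 2.40 ± 0.41). Log2 differences were above 0 for 12 of the 14 genes, where 55.3% of all genes tested lay below 0. The groups did not overlap in 3 of the 14, against 18.3% of all genes tested. The precursor markers Pdgfra, Cspg4 and Gpr17 overlapped between the regions. Pdgfra, the receptor of precursors for platelet-derived growth factor, had 54.5, 59 and 44.7 CPM in corpus callosum against 59.1, 55.1 and 37.7 CPM in cortex (adjusted p = 0.956), and Cspg4, the NG2 proteoglycan, had 26.6, 20.02 and 17.9 CPM in corpus callosum against 35.9, 21.3 and 14.7 CPM in cortex (adjusted p = 0.901; both edgeR). Gpr17, a receptor of committed precursors, had 91.2, 63.8 and 57.2 CPM in corpus callosum against 63.5, 46.5 and 22.2 CPM in cortex (adjusted p = 0.431, edgeR).

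Of 10 genes that vary between mature oligodendrocyte subtypes, 3 rose, with a median of 0.67. Apod, a lipid-carrying apolipoprotein, had 455, 219 and 360.13 CPM in corpus callosum against 84.2, 76.4 and 85.3 CPM in cortex (log2 2.07 ± 0.33; edgeR adjusted p = 0.000243), and Il33, a nuclear alarmin that oligodendrocytes hold in quantity, had 113, 92.4 and 118 CPM in corpus callosum against 27.2, 33.1 and 49.9 CPM in cortex (log2 1.55 ± 0.28; edgeR adjusted p = 0.00103). Qdpr, a pteridine reductase, had 611, 369 and 568 CPM in corpus callosum against 115, 149 and 298 CPM in cortex; its edgeR adjusted p of 0.0366 became 0.0569 with a replicate block, and its call was lost without any of 4 libraries (adjusted p 0.129 to 0.179), cortex libraries 1 and 2 and corpus callosum libraries 1 and 3. Among 10 genes of iron and lactate handling, Trf, the iron carrier transferrin, was the one that passed, with 816, 344 and 454 CPM in corpus callosum against 102, 96.2 and 70.8 CPM in cortex (log2 2.59 ± 0.40; edgeR adjusted p = 0.000204). Over all genes tested 2.73% rose, and a single call in a list as short as this one, or as others given here, says little of the list.

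Among called genes whose log2 CPM averaged 3 or more and whose groups did not overlap, the largest differences on the higher side included further genes. Serpinb1a, an inhibitor of neutrophil serine proteases, had 34.3, 13 and 28.8 CPM in corpus callosum against 2.36, 2.53 and 3.06 CPM in cortex (log2 3.26 ± 0.38; edgeR adjusted p = 1.08e-05). Dock5, an exchange factor for Rac, had 69.5, 29.4 and 55.4 CPM in corpus callosum against 7.24, 5.86 and 4.9 CPM in cortex, and Anln, the actin- and septin-binding protein anillin, had 201, 118 and 202 CPM in corpus callosum against 12.3, 21.9 and 27 CPM in cortex. In each the lowest corpus callosum library was more than 4-fold above the highest cortex library. Carns1, which makes carnosine and homocarnosine, had 68.3, 23.7 and 70.6 CPM in corpus callosum against 5.47, 10.3 and 4.14 CPM in cortex, and Adamts4, a protease that cleaves chondroitin proteoglycans, had 133, 44.3 and 98 CPM in corpus callosum against 14.8, 10.9 and 8.42 CPM in cortex. Sec14l5, a lipid-binding protein, had 64.8, 34.8 and 61.2 CPM in corpus callosum against 9.01, 5.07 and 4.14 CPM in cortex.

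Gpm6b, a membrane glycoprotein of glia and neurons, had 1290, 1104 and 1463 CPM in corpus callosum against 843, 1019 and 1130 CPM in cortex (log2 0.37 ± 0.22; adjusted p = 0.461) and Gpm6a, its neuronal relative, had 937, 1117 and 1103 CPM in corpus callosum against 1041, 1102 and 1400 CPM in cortex (log2 -0.17 ± 0.21; adjusted p = 0.781; both edgeR). Among 9 connexins, whose channels couple neighbouring cells, 3 rose and none fell, and the largest log2 difference of the list was 2.67. Gjc3 and Gjb1, both of oligodendrocytes, were among the 3. Gjc3 had 245, 158 and 281 CPM in corpus callosum against 32.8, 32.7 and 54.4 CPM in cortex (log2 2.51 ± 0.34) and Gjb1 had 62, 26.8 and 47.5 CPM in corpus callosum against 7.98, 8.8 and 9.04 CPM in cortex (log2 2.40 ± 0.42), with edgeR adjusted p-values of 4.32e-05 and 0.00097. The astrocyte connexins did not pass. Gja1 had 244, 230.10 and 192 CPM in corpus callosum against 283, 288 and 171 CPM in cortex (adjusted p = 0.825) and Gjb6 had 47.2, 72.9 and 58.8 CPM in corpus callosum against 60.9, 99.6 and 94.4 CPM in cortex (adjusted p = 0.387; both edgeR). The neuronal Gjd2, with 5.51, 5.07 and 1.81 CPM in corpus callosum against 2.81, 4.8 and 4.75 CPM in cortex, the vascular Gja4 and Gjc1 did not pass either, and Gja5 had too few counts to be tested. Among the link proteins, which fix hyaluronan to proteoglycans, Hapln2, found at nodes of Ranvier, had 199.77, 125 and 229 CPM in corpus callosum against 17, 22.1 and 27 CPM in cortex (log2 3.07 ± 0.34; edgeR adjusted p = 8.1e-06). Hapln1 and Hapln4, which belong to perineuronal nets, had log2 differences of -0.52 ± 0.27 and -0.66 ± 0.60 and did not pass (adjusted p = 0.387 and 0.669).

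Of 12 genes of the node of Ranvier and its flanks 3 rose: Hapln2, Cntn2, an adhesion molecule of the juxtaparanode, with 475, 244 and 342 CPM in corpus callosum against 130.15, 133 and 68.2 CPM in cortex, and Nfasc, which has glial and neuronal forms at the paranode and node, with 455, 323 and 502 CPM in corpus callosum against 238, 184 and 84.2 CPM in cortex. The call of Nfasc (edgeR adjusted p = 0.0204) was lost without cortex library 3 (adjusted p = 0.0617), corpus callosum library 1 (0.102) or corpus callosum library 3 (0.111). The axonal partners at the paranode, Cntnap1 and Cntn1, had log2 differences of -0.34 ± 0.35 and -0.23 ± 0.25 and did not pass (edgeR adjusted p = 0.706 and 0.748). Of 10 axon cytoskeleton genes none passed, where 3.39% of all genes tested did. The neurofilament light chain Nefl had 343, 406 and 339.83 CPM in corpus callosum against 481, 548 and 556 CPM in cortex (adjusted p = 0.187, edgeR). Among 11 chondroitin proteoglycans and link proteins, Vcan, versican, rose beside Hapln2, with 36.9, 30.7 and 45 CPM in corpus callosum against 16, 19.9 and 16.8 CPM in cortex (log2 1.10 ± 0.26; edgeR adjusted p = 0.0159). Versican lost its call without cortex library 1 (adjusted p = 0.0727) or corpus callosum libraries 1 (0.0523) and 3 (0.117).

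Astrocyte genes did not move as a block. Gfap, the intermediate filament of fibrous astrocytes, had 918, 299.65 and 365 CPM in corpus callosum against 148, 124 and 93.3 CPM in cortex (log2 2.11 ± 0.47; edgeR adjusted p = 0.00858). Corpus callosum library 1 was well above the other 2, and without it the adjusted p was 0.142. C4b, a complement component, had 95.7, 27 and 47.6 CPM in corpus callosum against 10.8, 5.86 and 5.67 CPM in cortex (log2 2.93 ± 0.46; edgeR adjusted p = 0.000247), and reads of its near-identical neighbour C4a could have been counted with it. These were the 2 called genes among 10 tested for fibrous and reactive astrocytes, whose median was 0.18 and lay between 0.06 and 0.82 when 1 library was left out. Of 18 genes of protoplasmic and general astrocytes 1 fell. That gene was Chrdl1, a secreted BMP antagonist of cortical astrocytes, with 3.74, 7.67 and 3.67 CPM in corpus callosum against 14.2, 20.3 and 14.2 CPM in cortex (log2 -1.71 ± 0.34; edgeR adjusted p = 0.00335). The water channel Aqp4 had 198, 121 and 188 CPM in corpus callosum against 156, 154 and 134 CPM in cortex (adjusted p = 0.822), and the glutamate transporter Slc1a2 had 3630, 3854 and 3608 CPM in corpus callosum against 5134, 5251 and 1695 CPM in cortex (adjusted p = 0.897; both edgeR), with cortex library 3 the lowest of all 6 for Slc1a2.

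Of 21 homeostatic microglial genes none passed, where 3.39% of all genes tested did, so that the count of 0 is near that share. Their sum was 923, 808 and 789 CPM in corpus callosum against 796, 867 and 990.29 CPM in cortex, with overlapping groups. Csf1r, the receptor that PLX5622 blocks, had 99.9, 75.1 and 53.6 CPM in corpus callosum against 113, 107 and 51 CPM in cortex (log2 -0.25 ± 0.41; adjusted p = 0.837), and Cx3cr1, the fractalkine receptor, had 73.6, 52.3 and 54.5 CPM in corpus callosum against 74.9, 59 and 76.7 CPM in cortex (log2 -0.22 ± 0.30; adjusted p = 0.794; both edgeR). Tmem119, a marker that infiltrating myeloid cells lack, had 34.1, 31.2 and 36 CPM in corpus callosum against 34.4, 32.5 and 34.6 CPM in cortex. Of 15 genes linked to disease- and white-matter-associated microglia 10 had enough counts and none passed. Spp1, osteopontin, which other cells also make, was the nearest with 9.05, 7.67 and 6.12 CPM in corpus callosum against 4.28, 3.87 and 4.14 CPM in cortex (adjusted p = 0.31, edgeR). The SE of the log2 difference was 0.407 for Csf1r and 0.297 for Cx3cr1. A call takes a difference of several SE, so regional differences of that order, and larger ones, could be missed with 3 libraries a region.

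**Figure D3:**
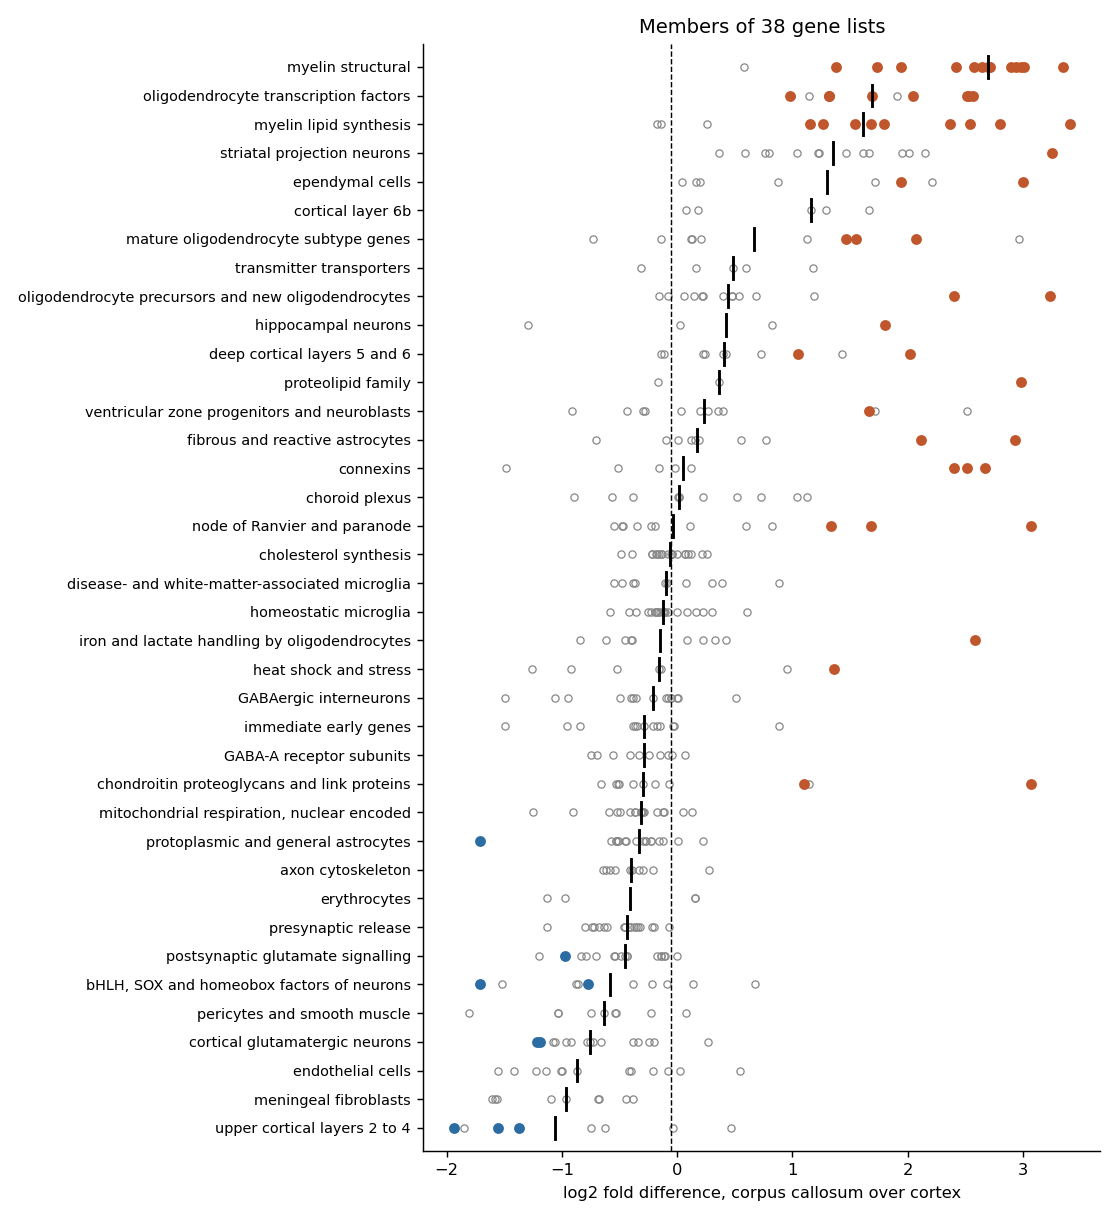
Each row is 1 of 38 gene lists, ordered by its median, and each circle a tested member at its log2 fold difference, corpus callosum over cortex. Filled orange circles are higher and filled blue circles lower at an adjusted p under 0.05, the black bar is the list's median and the dashed line the median of all genes tested (-0.06). Myelin, oligodendrocyte factor and myelin lipid lists lie at the top, and the upper cortical layers at the bottom.

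Genes of the upper cortical layers were among those called lower. Of 8 markers of layers 2 to 4, 3 fell and none rose, with a median log2 difference of -1.06 against -0.06 over all genes tested, and 0.659% of all genes tested fell. The list's sum was 334, 334 and 267 CPM in corpus callosum against 809, 884 and 554 CPM in cortex, and every corpus callosum library was below every cortex library. Lamp5, a membrane protein of superficial pyramidal cells and of some interneurons, is on chromosome 2 at 136057748-136069917 and had 49, 70.5 and 45 CPM in corpus callosum against 172, 271 and 184 CPM in cortex (log2 -1.93 ± 0.32; edgeR adjusted p = 0.000576). Rasgrf2, an exchange factor of layer 2 and 3 neurons, had 44.9, 48.6 and 50.2 CPM in corpus callosum against 159, 154 and 109 CPM in cortex (log2 -1.55 ± 0.27; edgeR adjusted p = 0.000792). Cux2, a homeobox factor of upper layers, had 85.4, 75.4 and 60.4 CPM in corpus callosum against 244, 233 and 94.7 CPM in cortex (log2 -1.37 ± 0.30; edgeR adjusted p = 0.00883). Cortex library 3 was the lowest of its region for Cux2, and the call was lost without cortex library 2 (adjusted p = 0.0546) or corpus callosum library 3 (0.0784).

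Of 10 markers of layers 5 and 6, 2 rose and none fell, with a median of 0.41 (0.18 to 0.79 with 1 library left out) and a sum of 544, 579.80 and 441 CPM in corpus callosum against 479, 356 and 250.14 CPM in cortex. Foxp2, a forkhead factor of layer 6 that striatal neurons also express, is on chromosome 6 at 14901349-15441977 and had 42.6, 42.5 and 55.5 CPM in corpus callosum against 12.9, 8.8 and 13 CPM in cortex (log2 2.02 ± 0.24; edgeR adjusted p = 1.08e-05). The 2 untreated control striatum libraries of the series had 88.2 and 104 CPM. Etv1, an ETS factor of layer 5, had 50.9, 66.8 and 61.2 CPM in corpus callosum against 26.7, 32.7 and 26.8 CPM in cortex (log2 1.05 ± 0.22; edgeR adjusted p = 0.00537), and the striatum libraries had 34.7 and 31.6 CPM, below all 3 corpus callosum libraries. Tbr1 and Fezf2, 2 other deep-layer factors, had log2 differences of -0.20 ± 0.89 and 0.42 ± 0.43 with adjusted p-values of 0.948 and 0.716 (edgeR). The 5 markers of layer 6b, the thin sheet of neurons that borders the white matter, had a median of 1.16. None passed, where 3.39% of all genes tested did. Cplx3, a complexin of those neurons, had 65.5, 60.8 and 54.3 CPM in corpus callosum against 13.9, 19.7 and 47.3 CPM in cortex, with an adjusted p of 0.219, and of 0.0375 without cortex library 3 (edgeR).

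**Figure D4:**
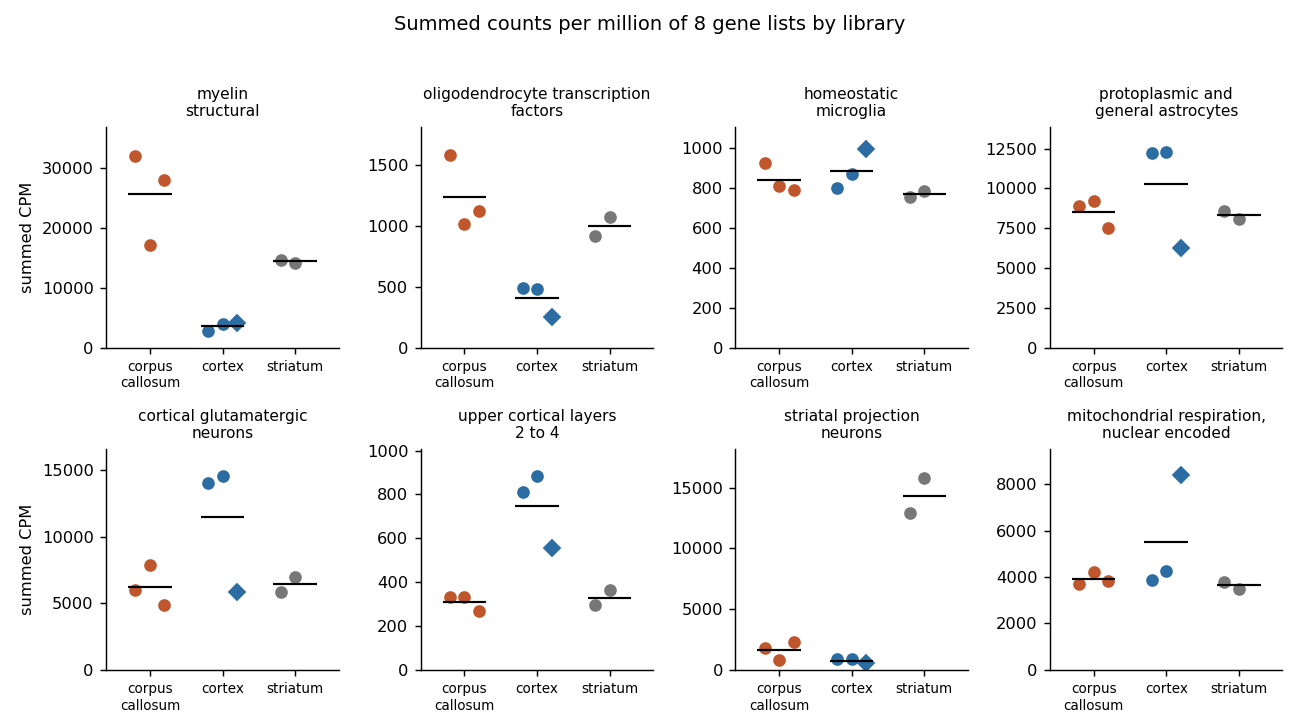
Summed CPM of 8 gene lists in each untreated control library, with corpus callosum (orange, 3), cortex (blue, 3) and, for scale, striatum (grey, 2), and lines at the group means. Cortex library 3 is drawn as a diamond: it lies with the other cortex libraries for myelin genes, within the corpus callosum range for glutamatergic neurons and far above all others for nuclear genes of mitochondrial respiration.

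Among 15 general markers of cortical glutamatergic neurons, 2 fell and none rose, with a median of -0.76. Nrgn, neurogranin, a calmodulin-binding protein of dendritic spines, had 816, 1151 and 596 CPM in corpus callosum against 2266, 2353 and 1322 CPM in cortex (log2 -1.21 ± 0.28; edgeR adjusted p = 0.0122). Kcnv1, a silent potassium channel subunit, had 48.6, 43.7 and 44.8 CPM in corpus callosum against 105, 65.4 and 142 CPM in cortex (log2 -1.19 ± 0.30; edgeR adjusted p = 0.0232). Both calls rested on single libraries. Nrgn lost its call without cortex library 2 (adjusted p = 0.0697), corpus callosum library 1 (0.0847) or corpus callosum library 3 (0.121), and Kcnv1 kept it in 1 of the 6 sets, the one without cortex library 2 (adjusted p = 0.00902), the other values running between 0.052 and 0.116. Slc17a7, the vesicular glutamate transporter VGLUT1, had 1000, 1196 and 598 CPM in corpus callosum against 2161, 1795 and 842 CPM in cortex and did not pass (adjusted p = 0.637, edgeR). Camk2a, the α subunit of CaM kinase II, showed how cortex library 3 weighed on this group. It had 1996, 2839 and 1916 CPM in corpus callosum against 5745, 6755 and 1544 CPM in cortex, with an adjusted p of 0.122, and of 0.00261 without cortex library 3 (edgeR).

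All 18 presynaptic release genes had log2 differences below 0, as 55.3% of all genes tested did, with a median of -0.43, and none passed; Snap25 had 1391, 1877 and 1268 CPM in corpus callosum against 1815, 2254 and 2171 CPM in cortex (adjusted p = 0.307, edgeR). Of 17 postsynaptic glutamate genes 1 fell, Camkk2, a kinase upstream of CaM kinases and AMPK, with 211, 229 and 207 CPM in corpus callosum against 447, 535 and 285 CPM in cortex (log2 -0.97 ± 0.22; edgeR adjusted p = 0.0112). Without cortex library 3 this list had 5 lower genes, and without cortex library 2 it had 0, with Camkk2 at an adjusted p of 0.0936; its call was also lost without corpus callosum library 1 (0.0714) or 3 (0.0695). None of 10 GABA-A receptor subunits and none of 15 interneuron markers passed. Over all genes tested 3.39% did, so that the counts of 0 given here are near that share. Log2 differences were below 0 for 9 of the 10 subunits and 13 of the 15 interneuron markers. Gad1, which makes GABA, had 303, 251 and 203 CPM in corpus callosum against 322, 267 and 163 CPM in cortex (log2 0.01 ± 0.41; adjusted p = 0.996, edgeR).

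Outside these lists, several called genes whose log2 CPM averaged 3 or more and whose groups did not overlap had large differences on the lower side. Stard8, a GTPase-activating protein with a lipid-binding domain, is on chromosome X at 99042581-99074728 and had 12.2, 9.49 and 9.24 CPM in corpus callosum against 43.7, 49.99 and 31.6 CPM in cortex (log2 -2.02 ± 0.27; edgeR adjusted p = 3.14e-05). Fam19a2, a secreted protein of the TAFA family, had 17.1, 27.6 and 28.4 CPM in corpus callosum against 81.8, 76 and 80.7 CPM in cortex (log2 -1.70 ± 0.29; edgeR adjusted p = 0.00063). Evc2, a ciliary protein of hedgehog signalling, had 7.9, 5.46 and 7.13 CPM in corpus callosum against 27.2, 21.9 and 13.2 CPM in cortex. These 3 kept their calls without any 1 library. Stard8 and Fam19a2 were also called lower in each of the 3 other groups of mice. Evc2 was not called in control mice on PLX5622, untreated MSA mice or MSA mice on PLX5622 (adjusted p = 0.143, 0.492 and 0.139, edgeR). Igfn1, an immunoglobulin and fibronectin domain protein, had the largest fitted difference of that set at -2.78 ± 0.69 (log2), with 3.85, 5.46 and 3.59 CPM in corpus callosum against 39.4, 27.3 and 20.7 CPM in cortex (edgeR adjusted p = 0.0219). Its call was lost without cortex library 1 (adjusted p = 0.071) or corpus callosum libraries 1 (0.0934) and 3 (0.136).

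Further genes of this side were less stable. Bhlhe22, a helix-loop-helix factor of cortical projection neurons, had 17, 40.8 and 17.7 CPM in corpus callosum against 111, 72.1 and 62.5 CPM in cortex (log2 -1.71 ± 0.44; edgeR adjusted p = 0.0275) and was called without cortex library 3 or corpus callosum library 2, while the other 4 sets gave adjusted p-values of 0.0511 to 0.182. Cbln4, a secreted synapse organiser, had 5.82, 8.84 and 5.02 CPM in corpus callosum against 24.4, 29.1 and 16.7 CPM in cortex and lost its call without cortex library 2 (adjusted p = 0.0876) or corpus callosum libraries 1 (0.117) and 3 (0.136). Kcnh5, a voltage-gated potassium channel, had 6.86, 5.85 and 5.36 CPM in corpus callosum against 26.9, 19.1 and 12.6 CPM in cortex and lost it without cortex library 1 (adjusted p = 0.0761) or corpus callosum library 3 (0.0952). Fam19a1, another TAFA gene, had 5.72, 9.88 and 5.19 CPM in corpus callosum against 26, 33.5 and 50.4 CPM in cortex, and its edgeR adjusted p was 0.0422, 0.0502 with a replicate block, and 0.0704 to 0.223 without cortex library 2 or 3 or corpus callosum library 1 or 3. Lmo4, a LIM-domain cofactor of cortical neurons, had 163, 204 and 128 CPM in corpus callosum against 241, 285 and 318 CPM in cortex, and its edgeR adjusted p was 0.0477, 0.0599 with a replicate block, and 0.123 to 0.308 without any of those 4 libraries. Of the 10 neuronal transcription factors that included Bhlhe22 and Lmo4, these 2 fell and none rose.

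Markers of tissue next to the corpus callosum were examined because a dissected tract borders striatum, ventricle, hippocampus and cingulate cortex. Striatal projection neuron genes summed to 1755, 788 and 2319 CPM in corpus callosum against 867, 859 and 539 CPM in cortex, while the striatum libraries reached 12869 and 15753 CPM. All 14 had log2 differences above 0, with a median of 1.35, and 1 passed. That gene, Six3, a homeobox factor of striatal neurons, had 32.6, 11.1 and 26.7 CPM in corpus callosum against 3.4, 2.27 and 1.68 CPM in cortex, with 102 and 103 CPM in striatum. Its adjusted p was 0.0411, 0.0563 with a replicate block, and 0.0762 to 0.121 in the 5 sets, other than the one without corpus callosum library 2, that lacked 1 library (edgeR). Corpus callosum library 2 had the lowest striatal sum of its region and lay within the cortex range. It was also the lowest of its region for Mbp.

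Prox1, a homeobox factor of dentate granule cells that oligodendrocytes express too, had 45.2, 25.1 and 44.1 CPM in corpus callosum against 16, 8.53 and 8.42 CPM in cortex (log2 1.80 ± 0.35; edgeR adjusted p = 0.00279), the 1 called gene among 4 hippocampal markers tested. Of 8 ependymal genes 2 rose, with a median of 1.30. Foxj1, the factor for motile cilia, had 27.5, 16.2 and 16.5 CPM in corpus callosum against 6.8, 6 and 2.76 CPM in cortex, and Ccdc153, a ciliary coiled-coil protein, had 3.85, 3.38 and 8.15 CPM in corpus callosum against 0.148, 0.267 and 1.53 CPM in cortex (edgeR adjusted p = 0.0209 and 0.0157). Foxj1 lost its call without cortex library 2 (adjusted p = 0.0565), cortex library 3 (0.0772) or corpus callosum library 1 (0.145). Ccdc153 lost it without cortex library 1 (adjusted p = 0.0938), cortex library 2 (0.115) or corpus callosum library 3 (0.122), and the list had 0 calls without cortex library 2. Cd24a, a surface protein of neuroblasts and ependyma, had 12.2, 10.01 and 18.7 CPM in corpus callosum against 4.58, 3.2 and 5.21 CPM in cortex and rose as the 1 of 12 genes on the ventricular zone list, at an adjusted p of 0.0145 that became 0.0524, 0.105 and 0.127 without cortex library 1, cortex library 2 or corpus callosum library 3 (edgeR). Choroid plexus genes varied by library and not by region, with sums of 249.59, 279.76 and 334 CPM in corpus callosum against 620.18, 22.9 and 187 CPM in cortex. Whether neighbouring tissue contributed to the calls was not tested.

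Vascular, meningeal and blood genes passed in neither direction. None of 13 endothelial, 9 pericyte and smooth muscle, 9 meningeal fibroblast and 4 tested erythrocyte genes was called. Over all genes tested 3.39% were, so that counts of 0 in lists of this size are near that share. The medians of the first 3 lists were -0.87, -0.64 and -0.97, against -0.06 over all genes tested. Cldn5, the endothelial tight junction claudin, had 14.6, 8.45 and 14.3 CPM in corpus callosum against 50.7, 15.1 and 21.9 CPM in cortex (adjusted p = 0.215), and the stromal proteoglycan Dcn had 8.74, 8.97 and 7.68 CPM in corpus callosum against 25.6, 9.6 and 19.1 CPM in cortex (adjusted p = 0.136; both edgeR). Also without calls were 13 immediate early genes, 5 tested transmitter transporters and 18 nuclear genes of mitochondrial respiration, whose sum of 3706, 4219 and 3844 CPM in corpus callosum against 3857, 4270 and 8411 CPM in cortex was set apart by cortex library 3 alone. Of 7 tested heat shock genes Cryab, a small chaperone abundant in oligodendrocytes, rose, with 306, 225 and 199 CPM in corpus callosum against 69.9, 85.6 and 129 CPM in cortex (log2 1.36 ± 0.33; edgeR adjusted p = 0.0188). It lost the call without cortex libraries 1 (adjusted p = 0.111) and 2 (0.105) or corpus callosum library 1 (0.136).

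The same region difference was then measured in separate libraries of the 3 other groups, which share no sample with the untreated controls, although all 30 bulk libraries entered 1 fit and share its estimate of spread. In control mice on PLX5622, 354 genes were higher in corpus callosum (2.45%) and 82 lower (0.569%), 3.02% in all. All 394 higher genes of the untreated controls kept their sign there and 259 of them were called. Of the 95 lower genes 94 kept their sign and 41 were called. In untreated MSA mice 299 genes were higher (2.07%) and 57 lower (0.395%), 2.47% in all. There 388 of the 394 and 94 of the 95 kept their sign, and 175 and 26 were called. In MSA mice on PLX5622 there were 841 higher (5.83%) and 574 lower genes (3.98%), 9.81% in all. There 391 and 95 kept their sign, and 328 and 79 were called. No gene called in the untreated controls was called in the opposite direction in any of these groups. Over all genes tested 46.3% had a log2 difference above 0 in the first of these groups, 49.5% in the second and 49.5% in the third. Calls in all 4 conditions were made for 157 higher and 16 lower genes. These counts lean on the pooled spread: with the 2 groups of a condition fitted alone, control mice on PLX5622 gave 0 higher and 0 lower genes, untreated MSA mice 700 and 482, and MSA mice on PLX5622 781 and 392.

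Mbp had 11501 and 8821 CPM in corpus callosum against 1743, 2141 and 811 CPM in cortex in control mice on PLX5622, 9318 and 6656 CPM in corpus callosum against 936, 1623 and 2247 CPM in cortex in untreated MSA mice and 8112 and 11967 CPM in corpus callosum against 2178, 2032 and 1183 CPM in cortex in MSA mice on PLX5622. The regions did not overlap in any condition. The log2 differences were 2.70, 2.32 and 2.48 in that order, against 2.94 in untreated controls. Stard8 had 9.41 and 16.6 CPM in corpus callosum against 29.3, 39.9 and 65 CPM in cortex in control mice on PLX5622, 13.3 and 12.6 CPM in corpus callosum against 46.9, 45 and 34.7 CPM in cortex in untreated MSA mice and 12.3 and 10.3 CPM in corpus callosum against 32.3, 35.4 and 42 CPM in cortex in MSA mice on PLX5622. Lamp5 fell in each, with log2 differences of -1.78, -2.03 and -2.35, and so did Cux2 and Rasgrf2 of the upper layers. Foxp2 rose in each, with log2 differences of 1.28, 1.17 and 1.30. Etv1, the other called deep-layer gene, rose in control mice on PLX5622 (1.08; adjusted p = 0.0107) but had log2 differences of 0.12 in untreated MSA mice (adjusted p = 0.918) and 0.12 in MSA mice on PLX5622 (adjusted p = 0.801; all edgeR). Gfap rose in control mice on PLX5622 and in untreated MSA mice, and in MSA mice on PLX5622 it had 1199 and 1899 CPM in corpus callosum against 685, 579 and 354 CPM in cortex (adjusted p = 0.0511, edgeR).

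**Figure D5:**
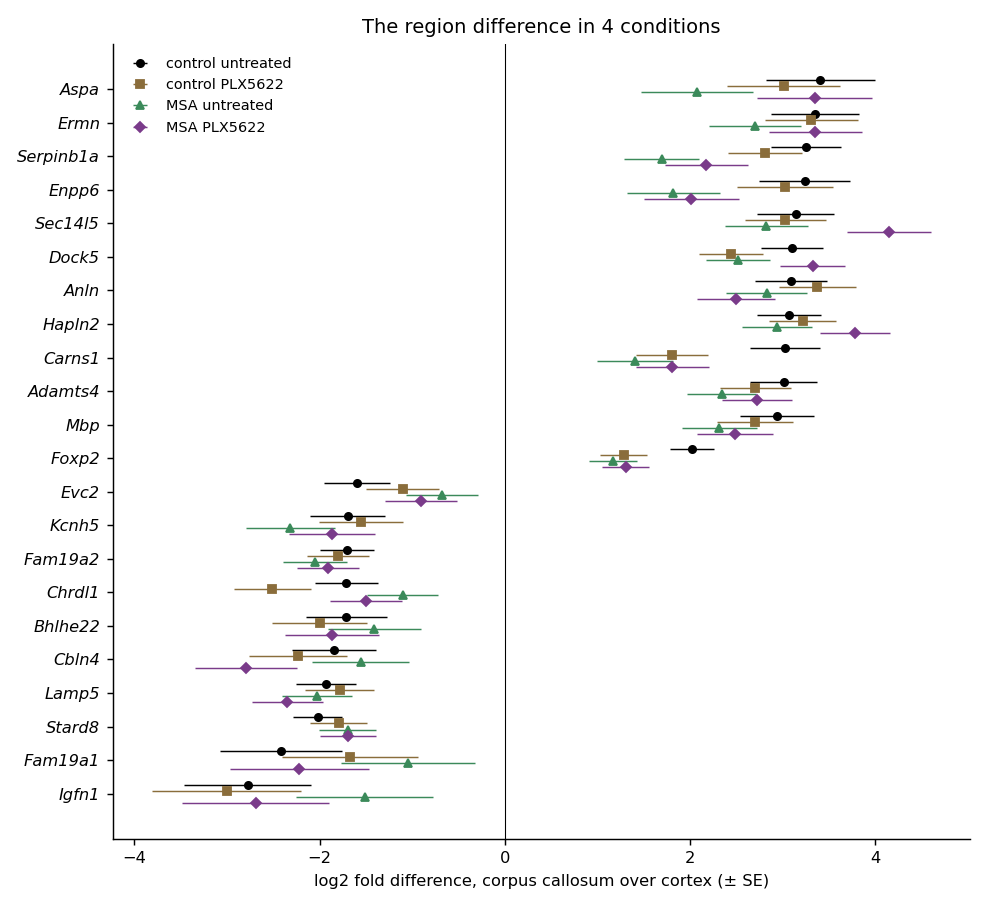
Log2 fold difference, corpus callosum over cortex, with its SE, for 22 genes in 4 conditions: untreated control (black circles), control on PLX5622 (brown squares), untreated MSA (green triangles) and MSA on PLX5622 (purple diamonds). Every gene drawn keeps its direction in all 4 conditions. Among the higher genes drawn, the untreated control value lies above the other 3 for Aspa, Serpinb1a, Enpp6, Carns1, Adamts4, Mbp and Foxp2. All genes drawn but Mbp and Foxp2 were picked for a large fold in untreated controls.

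The difference between these region effects was tested directly. Set against the region difference in untreated controls, those in control mice on PLX5622, untreated MSA mice and MSA mice on PLX5622 passed an adjusted p of 0.05 for 0 genes each (edgeR; unadjusted p under 0.05 for 154, 358 and 325 genes). DESeq2 called 0, 3 and 1 genes, the 3 being Fam84b, Kcne2 and Calml4 and the 1 being Fgl2. These genes are named for that count alone, after their values were seen. Each of these tests shares the untreated control libraries, so the 3 counts are not independent, and 2 or 3 libraries a group limit what they could resolve. A count of 0 does not show equal region differences. Csf1r and Cx3cr1 had log2 differences of 6.32 ± 1.76 and 2.57 ± 0.86 in control mice on PLX5622 (adjusted p = 0.0542 and 0.115, edgeR), against -0.25 and -0.22 in untreated controls. They were 0.14 and -0.01 in untreated MSA mice and -0.14 and 0.08 in MSA mice on PLX5622.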

How the data were processed

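Polyadenylated RNA of dissected brain regions was sequenced. The submitters' processing notes name STAR, HOMER, DESeq2 and the mouse build mm10, with no versions. How reads were counted, and whether by strand, was not given in the sources used here. Read counts per gene, and TPM (length-normalised transcript abundance), are used as the authors deposited them. The TPM columns sum to 453451 to 559022, less than the scale of 1e+06. Rows of the count table carry gene names from the files.

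Counts were tested with edgeR 4.0.16 (R 4.3.3; robust quasi-likelihood F test, two-sided, trimmed-mean-of-M-values scaling) on the 30 bulk libraries with a mean for each of 12 groups, for genes kept by filterByExpr (minimum count 10) in the 6 libraries compared. The p-values were adjusted by Benjamini-Hochberg over all genes tested, with a threshold of 0.05. SE is the absolute log2 difference over the square root of F. CPM are counts per 1e+06 of the scaled library size. The procedure was run on simulated counts drawn independently for each library. That run could not test an outlying library or libraries that deviate together, and its outcome is not reported here. DESeq2 1.42.0, other scalings, filters, a stricter threshold, the 2 groups alone, left-out libraries and a replicate block were alternatives. A library with under 70% of its reads assigned to genes was also left out as a group with its like.

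Samples were grouped by their labels. Same-numbered corpus callosum and cortex libraries deviated together (correlations across genes of 0.43, 0.22 and 0.51, against -0.45 to 0.08 for the other pairs). A replicate block by number was therefore among the alternatives. The fit as reported did not pair libraries. The pairing in that block comes from the replicate numbers in the labels, and number 3 is the library of lowest assigned share in both regions. Named genes were a fixed set of 10, the called genes with the 10 largest folds in either direction among those whose groups did not overlap and whose log2 CPM averaged 3 or more, up to 3 called members of each list with 1 in the other direction or, where none was called, the member of smallest p, and all connexin, link protein and Gpm6 genes. Some of these are not reported here. Other list members are named as examples. The members and lists were chosen with earlier results of these data known. Lists are described by counts and medians and were not tested as sets. Counting error is smallest for the highest genes, and depth ranged from 6490635 to 21747815 gene counts a library.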

Additional observations from a re-analysis of the deposited data

How the results depend on the processing

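No named gene that was called, in the fit as reported or under an alternative, changed sign under any alternative run. Medians and uncalled genes near 0 did change sign. The median over all genes was -0.06, and 0.07 with total-count scaling. With 1 library left out, the median ran from -0.21 to 0.04 for homeostatic microglia, from -0.27 to 0.22 for the node of Ranvier and from -0.35 to 1.45 for choroid plexus. In untreated controls the higher and lower counts were 394 and 95. A stricter adjusted p of 0.01 gave 230 and 22, the 2 groups alone 126 and 15, total-count scaling 547 and 60, DESeq2 533 and 256, and no filter on low counts 400 and 62. A replicate block gave 372 and 79 in the fit on 30 libraries, and 271 and 50 with the 2 groups alone. It ended the calls of 4 of the 58 called named genes (Fam19a1, Qdpr, Six3 and Lmo4) and of no other named gene. Leaving out 1 library, of a comparison's own libraries unless said otherwise, gave 224 to 437 higher and 19 to 186 lower genes. Without libraries under 70% assigned there were 278 and 123. Of the 58 called named genes, 39 stayed called under each of the 6 omissions, 37 in the fit on the 6 libraries alone, 57 by DESeq2 and 52 without cortex library 3. In control mice on PLX5622 (354 and 82), the stricter adjusted p gave 194 and 16, DESeq2 541 and 230, the 2 groups alone 0 and 0, total-count scaling 622 higher genes, and leaving out 1 library 202 to 407 and 14 to 259. In untreated MSA mice (299 and 57), the stricter adjusted p gave 108 and 15, DESeq2 477 and 177, the 2 groups alone 700 and 482, no libraries under 70% assigned 487 and 229, and leaving out 1 library 66 to 202 and 7 to 40. In MSA mice on PLX5622 (841 and 574), the stricter adjusted p gave 378 and 125, total-count scaling 1385 and 299, DESeq2 968 lower genes, no filter 364 lower genes, no libraries under 70% assigned 556 and 295, and leaving out 1 library 320 to 567 and 51 to 380. Where a corpus callosum group kept 1 library, that library was assumed to vary like the other groups. For the difference between region effects, DESeq2 called 3 genes (untreated MSA) and 1 gene (MSA on PLX5622), against 0 by edgeR, and leaving out 1 library gave 0 to 0. TPM recomputed from the counts, so that the rows of the table make up the whole scale, were 17843 for Mbp in corpus callosum, against 8207 as deposited, since the deposited columns sum to less than that scale. Without cortex library 3 of the untreated controls, which also changes the shared spread and the genes tested, the other conditions gave 471 and 170 (control on PLX5622), 417 and 89 (untreated MSA) and 1083 and 864 (MSA on PLX5622). The cause of the other shifts was not tested. Depth limits low genes most.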

Other observations

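Further genes were looked up after the table of calls had been seen, so their choice is not independent of their values. Several receptor genes were among them. Gpr17 was not called (adjusted p = 0.431), and Erbb3, a neuregulin receptor, was called (adjusted p = 0.0252) but kept its call in 1 of the 6 sets that left out 1 library and was not called in control mice on PLX5622 or untreated MSA mice (edgeR). Lpar1, a lysophosphatidic acid receptor, had 149, 101 and 137 CPM in corpus callosum against 18.9, 22.3 and 31.4 CPM in cortex (log2 2.41 ± 0.29; edgeR adjusted p = 1.59e-05), and S1pr5, a sphingosine-1-phosphate receptor of oligodendrocytes and some lymphocytes, had 69.2, 38.2 and 50.6 CPM in corpus callosum against 14.3, 12.4 and 7.05 CPM in cortex (log2 2.22 ± 0.30; edgeR adjusted p = 3.9e-05). Gpr37, an orphan receptor of mature oligodendrocytes, had 269, 115 and 134 CPM in corpus callosum against 51.4, 47.7 and 18.8 CPM in cortex (log2 2.13 ± 0.42; edgeR adjusted p = 0.00344). The calls of Lpar1, S1pr5 and Gpr37 held in each of the 6 sets that left out 1 untreated control library, and all 3 genes were also called in each of the 3 other conditions. Sspo, the giant secreted protein of the subcommissural organ, had 22.2, 11.2 and 23.8 CPM in corpus callosum against 1.03, 3.47 and 1.07 CPM in cortex (log2 3.33 ± 0.50; edgeR adjusted p = 0.000132).

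Both ligands of CSF1R were looked up. Il34, the ligand that neurons make, had 44.7, 41.1 and 36.5 CPM in corpus callosum against 62.8, 74 and 61.6 CPM in cortex, with every corpus callosum library below every cortex library (log2 -0.70 ± 0.17; edgeR adjusted p = 0.0195). Csf1, the ligand of glia, had 52.1, 30.03 and 35.9 CPM in corpus callosum against 26, 16.7 and 7.05 CPM in cortex (log2 1.25 ± 0.36; adjusted p = 0.054, edgeR) and did not pass, although its adjusted p was 0.0457 with a replicate block and 0.0172 with DESeq2. The call of Il34 was lost in 2 of the 6 sets that left out 1 library, without cortex library 2 (adjusted p = 0.104) or corpus callosum library 3 (0.141). In the other conditions the log2 difference of Il34 was -0.75 in control mice on PLX5622, -1.07 in untreated MSA mice and -0.94 in MSA mice on PLX5622, past the threshold in each. Unc5d, a netrin receptor of upper-layer neurons, had 22.5, 31.6 and 29.2 CPM in corpus callosum against 88.3, 58.4 and 54.4 CPM in cortex (log2 -1.27 ± 0.25; edgeR adjusted p = 0.00308) and was also called lower in all 4 conditions.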
